A study of Mus musculus with 8 samples.

Results

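The 34 genes described here encode the Wnt ligands of the mouse and the receptors that bind them. They were taken as listed members of these families, with no measured value used as a criterion, from 21938 protein-coding genes on the same annotation. Earlier results of these data were known when the list was chosen. The group comprised 19 Wnt genes, 10 Frizzled receptor genes (Fzd1 to Fzd10), the co-receptor genes Lrp5 and Lrp6, and Ror1, Ror2 and Ryk, which encode Wnt-binding members of the receptor tyrosine kinase family. Each gene was examined for peaks of WFS1, a transmembrane protein of the endoplasmic reticulum and the inner nuclear membrane, in chromatin immunoprecipitation sequencing (ChIP-seq) of myoblasts. A peak is a region where the authors' caller found more immunoprecipitated reads than expected locally.

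The cells were wildtype C2C12, an established mouse myoblast line, kept in the proliferating stage. Their chromatin was crosslinked with disuccinimidyl glutarate (DSG) and formaldehyde, sheared with 30 cycles of sonication, and precipitated with an antibody against WFS1. A part of the precipitate was sequenced directly, and another part after further sonication to 36 cycles in all, so that both libraries share 1 immunoprecipitation and neither is a replicate of the other. The experiment holds 8 libraries, of which the inputs and those of FLAG Tag WFS1 cells are not analysed here. Peak lists carry no expression values, so the cell type label could not be checked against myoblast markers.

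The 30-cycle list held 18283 peaks and the 36-cycle list 12674. Joined wherever they overlapped, they gave a combined set of 22292 peaks, of which 22287 lay on the autosomes, X and Y and were used. The lists give positions and no peak height, and the number of reads behind them is unknown. With 1 library per condition no test between conditions was possible, and all differences below are descriptions. The 95% Wilson intervals given with shares cover counting error only, as if genes or peaks were independent, which neighbouring Wnt genes are not.

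Wnt proteins are secreted, lipid-modified signals that act mostly on nearby cells. Binding to a Frizzled receptor together with Lrp5 or Lrp6 stabilises beta-catenin, which enters the nucleus and acts with TCF/LEF factors, while Ror and Ryk receptors and some Frizzleds serve branches that do not need beta-catenin. In skeletal muscle, Wnt signals take part in the induction of the myogenic programme in the embryo, and in the behaviour of satellite cells and the differentiation of myoblasts in the adult.

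The DNA under some of the peaks is shown first. The sequences are the central 200 bases of 6 of the widest peaks found in both lists. None of these peaks lies within 1 kb of the start site of the gene it is listed under. All are from the plus strand of GRCm38, and none overlaps an untranslated region. Capitals mark matches, on either strand, to 1 of 5 short motifs that were searched. These were TGACTCA (the AP-1 site), CAGCTG (an E-box of the kind bound by myogenic factors), CTTTGAT or CTTTGAA (TCF/LEF), TGTGGT (RUNX) and GGAATG (TEAD).
Fzd2, 39.3 kb downstream of the start, chr11:102644062-102644261: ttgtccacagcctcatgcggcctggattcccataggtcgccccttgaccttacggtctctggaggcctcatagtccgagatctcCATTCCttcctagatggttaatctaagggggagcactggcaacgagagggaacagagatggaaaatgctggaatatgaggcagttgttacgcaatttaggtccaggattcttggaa
Ryk, in an intron, chr9:102842169-102842368: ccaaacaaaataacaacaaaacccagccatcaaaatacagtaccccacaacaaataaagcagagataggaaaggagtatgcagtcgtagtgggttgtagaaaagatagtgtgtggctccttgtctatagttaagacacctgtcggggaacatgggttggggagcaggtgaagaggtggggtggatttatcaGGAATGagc
Wnt9a, in an intron, chr11:59308193-59308392: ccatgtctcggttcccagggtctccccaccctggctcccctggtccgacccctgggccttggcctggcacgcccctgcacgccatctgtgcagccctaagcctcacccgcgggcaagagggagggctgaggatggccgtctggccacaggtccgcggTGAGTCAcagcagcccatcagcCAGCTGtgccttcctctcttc
Wnt10b, 1.89 kb upstream, chr15:98780365-98780564: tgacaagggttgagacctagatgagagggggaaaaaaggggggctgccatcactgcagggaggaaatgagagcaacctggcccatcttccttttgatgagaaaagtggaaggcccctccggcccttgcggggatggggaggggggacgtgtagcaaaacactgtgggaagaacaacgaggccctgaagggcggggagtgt
Wnt10b, 1.12 kb upstream, chr15:98779531-98779730: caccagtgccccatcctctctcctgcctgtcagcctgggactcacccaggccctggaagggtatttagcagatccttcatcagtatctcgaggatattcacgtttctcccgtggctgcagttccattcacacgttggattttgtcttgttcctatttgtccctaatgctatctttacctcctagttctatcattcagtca
Wnt11, 19.1 kb upstream, chr7:98815488-98815687: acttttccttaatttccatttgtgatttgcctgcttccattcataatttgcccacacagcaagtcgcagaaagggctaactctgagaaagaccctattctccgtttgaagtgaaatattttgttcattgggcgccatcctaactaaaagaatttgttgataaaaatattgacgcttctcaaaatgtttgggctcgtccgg
The E-box and the AP-1 match stand close together in the Wnt9a sequence, whereas the Wnt10b and Wnt11 sequences hold no match to any of the motifs. A match describes letters in this window and was not examined as a binding site.

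WFS1 peaks were found at the start sites of few of these genes and within 50 kb of most of them. Within 1 kb of the start site, 4 of 34 genes had a peak of the combined set, a share of 11.8% (4.67 to 26.6%). Among all protein-coding genes this share was 13.2%, and among other protein-coding genes of the same length deciles it was 13.5%. The genes with such a peak were Fzd1, Fzd2, Fzd7 and Wnt10b.

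A peak within the body of the gene was found for 11 of 34 genes, or 32.4% (19.1 to 49.2%), where all protein-coding genes gave 24.6% and the same length deciles 25.9%. Within 50 kb of the start site on either side, 23 of 34 genes had a peak, or 67.6% (50.8 to 80.9%), where all protein-coding genes gave 54.0% and the length deciles 54.3%. The background shares lay inside the interval of the 34 genes at each of the 3 distances. On these counts the group therefore did not exceed other genes beyond counting error. A count by nearest start site, given below, differed. Length was taken into account because longer genes hold more peaks, from a mean of 0.0693 peaks per gene in the shortest decile to 2.4 in the longest.

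Counts for the ligands and for the Frizzled receptors are given separately. Of the 19 Wnt genes, 15 had a peak within 50 kb (78.9%, interval 56.7 to 91.5%, length deciles 56.0%) and 1 had a peak at its start site (5.26%, interval 0.935 to 24.6%, length deciles 14.0%). Of the 10 Frizzled genes, 4 had a peak within 50 kb (40.0%, interval 16.8 to 68.7%, length deciles 51.5%) and 3 had a peak at the start site (30.0%, interval 10.8 to 60.3%, length deciles 10.8%). The 15 ligand genes are not 15 independent regions, since neighbouring Wnt genes lie within reach of the same peaks, and they drew on 12 different groups of peaks. The length-decile share of the ligands within 50 kb lay just below their interval, which treats neighbouring genes as independent. That of the Frizzleds at the start site lay at the lower limit of theirs. The intervals of ligands and Frizzleds overlapped at both distances, and the difference between them was not tested.

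**Figure D1:**
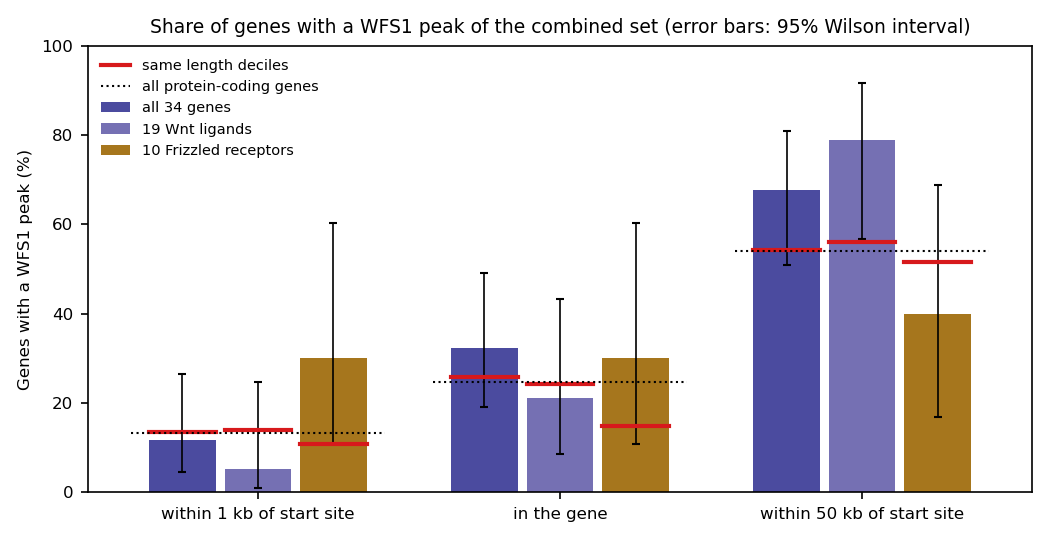
Share of genes (%) with a WFS1 peak of the combined set within 1 kb of the start site, in the gene and within 50 kb of the start site, for all 34 genes, the 19 Wnt ligands and the 10 Frizzled receptors, with 95% Wilson intervals. Red lines give the share of other protein-coding genes in the same length deciles and dotted lines that of all protein-coding genes. The ligand bar at 50 kb (78.9%) and the Frizzled bar at the start site (30.0%) are those farthest above their red lines.

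The lists differed in what they contributed. In the 30-cycle list alone, 3, 9 and 22 genes had a peak at the start site, in the gene and within 50 kb, and the shares among all protein-coding genes were 10.9%, 21.8% and 50.2%. The 36-cycle list alone gave 2, 7 and 16 genes, and all protein-coding genes 6.02%, 15.0% and 36.3%. Counting only combined peaks with a contribution from both lists, 1, 5 and 13 genes remained, where all protein-coding genes gave 3.33%, 10.9% and 27.5%. Fzd2 was therefore the gene of this group with a start-site peak seen after both shearing steps.

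In all, 60 distinct peaks lay in these genes or within 50 kb of their start sites. Of these peaks, 10 lay within 50 kb of the start sites of 2 of the genes. Of the 60, 34 came from the 30-cycle list alone (56.7%, 44.1 to 68.4%), against 45.5% of all combined peaks. Both lists contributed to 18 (30.0%, 19.9 to 42.5%, all peaks 35.4%) and the 36-cycle list alone to 8 (13.3%, 6.91 to 24.2%, all peaks 19.1%). The peaks of these genes were thus drawn somewhat more from the 30-cycle list, but the share of all peaks was inside the interval in each class. Their median width was 344 bp (range 195 to 1260 bp), where all combined peaks had a median of 376 bp.

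**Figure D2:**
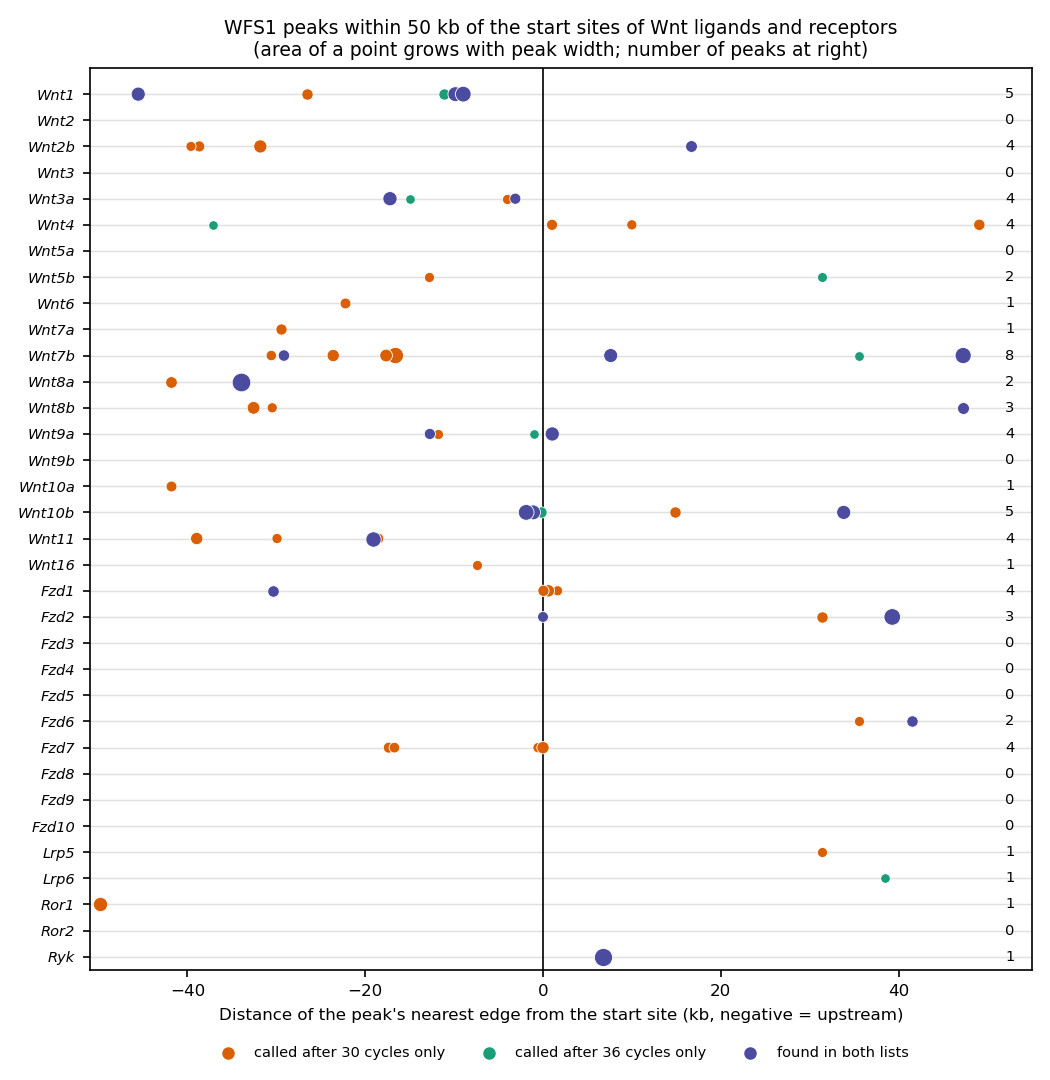
WFS1 peaks within 50 kb of the start site of each of the 34 genes, 1 line per gene, with the distance of the nearest peak edge in kb on the horizontal axis (negative is upstream) and the colour giving the list that called the peak. Wnt7b has 8 peaks, the most of these genes, and 11 genes have none.

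The Frizzled genes encode the seven-pass receptors to which Wnt proteins bind. Fzd2 had a 309 bp peak directly over its start site, called in both lists. It also had peaks 31.4 and 39.3 kb downstream, of 350 and 966 bp, the first from the 30-cycle list and the second from both, and for both of these Meioc was the protein-coding gene with the nearest start site.

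Fzd1 carried more peaks in its body than most genes of its length. Its 3 peaks lay 0.0490, 0.608 and 1.64 kb from the start, in the untranslated part and then in the coding part of its single exon, with widths of 343, 456 and 242 bp. The gene is 4.20 kb long, and genes of that length decile held a mean of 0.12 peaks. At least 3 peaks in the gene were found in 5.99% of all protein-coding genes. The Fzd1 peaks at 0.0490 and 0.608 kb lay less than 500 bp from each other. All 3 Fzd1 peaks were in the 30-cycle list only, while another peak of 371 bp, 30.4 kb upstream, was in both.

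Fzd7, a receptor studied in satellite cells as a partner of Wnt7a, had a 447 bp peak over the start site (chr1:59482111-59482557) and a 262 bp peak 0.558 kb upstream. A pair of further peaks of 288 and 320 bp lay 16.7 and 17.4 kb upstream. None of the 4 Fzd7 peaks was called after 36 cycles. With Fzd1, Fzd7 was 1 of 2 members with at least 2 start-site peaks, a property of 2.1% of protein-coding genes. In both genes these 2 peaks lie less than 500 bp apart, so each pair may be parts of 1 region. Joined over that distance, they would count as 1 peak per gene.

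The remaining Frizzled with a peak in reach was Fzd6, with peaks of 245 and 361 bp at 35.6 and 41.5 kb downstream of the start, beyond the end of the gene and nearest to the start of Cthrc1. Fzd3, Fzd4, Fzd5, Fzd8, Fzd9 and Fzd10 had no peak within 50 kb. The Frizzleds thus split into 3 genes with peaks at the promoter, 1 with distant peaks and 6 with none.

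The 3 Frizzled genes with a start-site peak all consist of a single exon. Of the 6 single-exon members, Fzd1, Fzd2, Fzd7, Fzd8, Fzd9 and Fzd10, 3 had a start-site peak, against 7.89% of 1318 single-exon protein-coding genes. Among the 28 members with several exons, 1 had one (3.57%), against 13.5% of all protein-coding genes of this kind. This comparison was chosen after the values were seen. It was not matched for the CpG content of the promoter. Across classes of that content, described below, the start-site share of other genes ran from 1.19% to 25.2%.

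In Lrp5, Lrp6, Ror1 and Ryk, all peaks within the gene were intronic. Ryk, an atypical receptor tyrosine kinase for Wnt, had a single peak of 1184 bp, called in both lists, 6.76 kb into the gene (chr9:102841677-102842860), and it was the widest peak inside any of the 34 genes. Ror1, a receptor for Wnt5a-type signals, had 4 peaks in the introns of its 349 kb gene. They lay 143, 144, 190 and 226 kb from the start, the third called in both lists, the first and second after 36 cycles only and the last after 30 cycles only. A 662 bp peak 49.8 kb upstream of Ror1 was in the 30-cycle list.

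Lrp5 and Lrp6, the co-receptors of the beta-catenin branch, had 1 intronic peak each. That of Lrp5 was 242 bp wide and called after 30 cycles only, and that of Lrp6 was 197 bp wide and called after 36 cycles only. A peak in the gene was common at this length, since it was found in 45.5% of other genes in the length decile of Lrp5 (102 kb) and in 60.9% in that of Lrp6 (120 kb). Ror2, though 177 kb long, held none, and its nearest peak was 91.2 kb upstream.

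**Figure D3:**
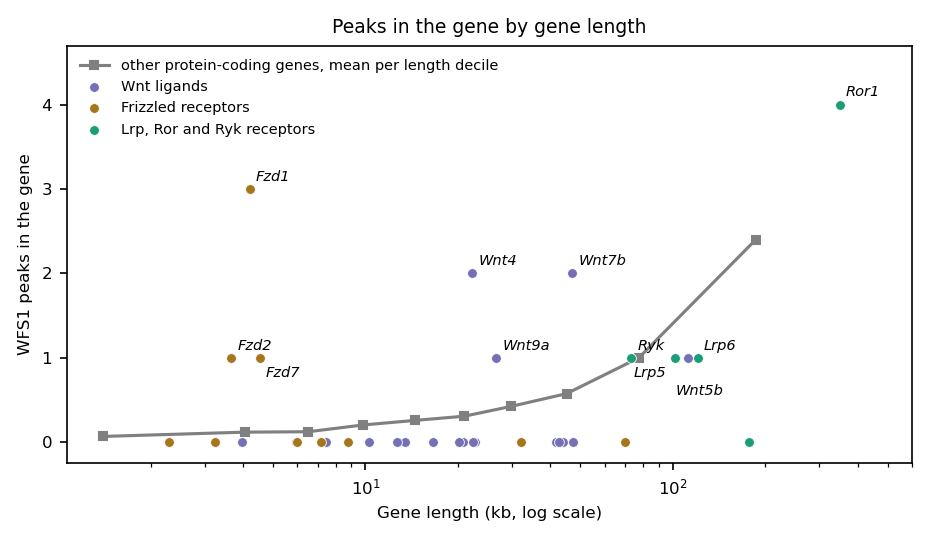
Number of WFS1 peaks of the combined set in the gene (vertical axis) against gene length in kb (horizontal axis, log scale) for the 34 genes, with the mean of other protein-coding genes per length decile in grey. Fzd1, with 3 peaks in 4.20 kb, lies farthest above the grey line among short genes, and Ror1, with 4, is the longest gene.

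Among the ligands, Wnt10b was the gene with a peak at its start site. Wnt10b, known for favouring myogenic over adipogenic fate in progenitors, and Wnt1, a classical inducer of myogenesis in the somite, are transcribed away from each other on chromosome 15 with their start sites 11.7 kb apart. All 3 peaks between them lay at the Wnt10b end. The nearest, 346 bp wide, was 0.265 kb upstream of Wnt10b and came from the 36-cycle list only. The others, of 731 and 844 bp, were 1.12 and 1.89 kb upstream and in both lists (chr15:98779266-98779996 and chr15:98780043-98780886). Measured from Wnt1, the same peaks lay 11.1, 9.86 and 8.97 kb upstream, so that Wnt1 had 5 peaks within 50 kb, all shared with Wnt10b, and was the nearest gene to none.

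Wnt3a and Wnt9a on chromosome 11 form a similar divergent pair, with start sites 16.2 kb apart and 3 peaks between them. A 334 bp peak of both lists and a 242 bp peak of the 30-cycle list lay 3.12 and 4.09 kb upstream of Wnt3a, and a 198 bp peak of the 36-cycle list lay 1.05 kb upstream of Wnt9a. Repeat sequence made up 85.1% of the 242 bp peak. A 659 bp peak of both lists lay in an intron of Wnt9a, 1.04 kb from its start, which is just outside the 1 kb limit, and it holds the AP-1 and E-box matches shown above.

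The other neighbouring Wnt genes had no peak between them. Wnt6 and Wnt10a, in tandem on chromosome 1 with start sites 19.6 kb apart, shared 1 peak of 310 bp from the 30-cycle list, 22.2 kb upstream of Wnt6 and nearest to the start of Prkag3. Wnt9b and Wnt3, divergent with 24.3 kb between start sites, had none within 50 kb of either.

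**Figure D4:**
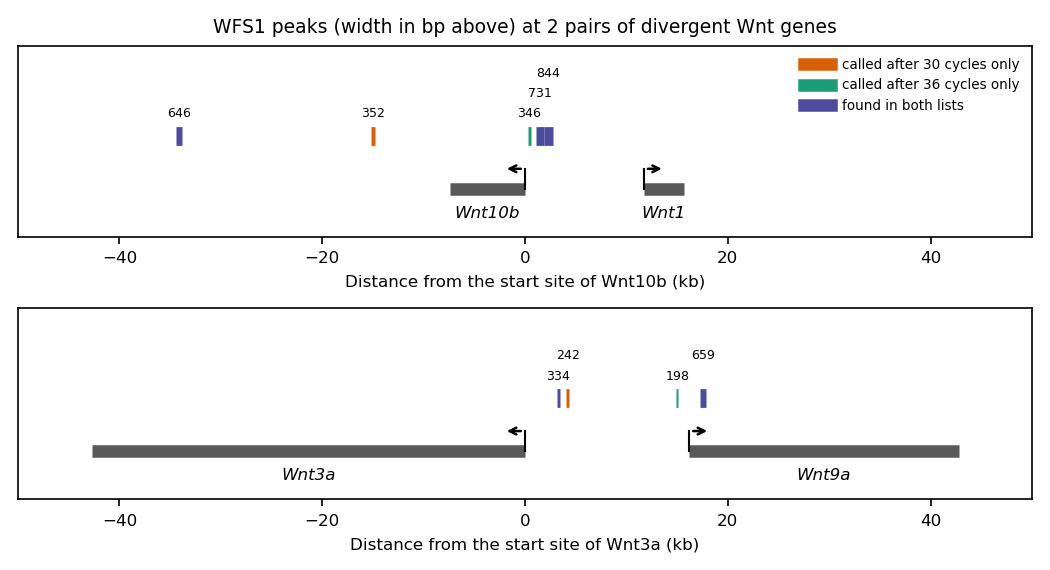
Positions of WFS1 peaks around the divergent gene pairs Wnt10b and Wnt1 (top) and Wnt3a and Wnt9a (bottom), with distance from the start site of the left gene in kb on the horizontal axis, grey bars for genes, arrows for the direction of transcription and peak widths in bp above the peaks. In the upper pair the 3 peaks between the start sites sit next to Wnt10b, whereas in the lower pair they lie near both ends.

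Wnt7b had 8 peaks within 50 kb, a number reached by 2.03% of protein-coding genes. A pair lay in introns, at 7.61 kb (634 bp, both lists) and 35.6 kb (210 bp, 36-cycle list). The widest of those upstream, 927 bp at 16.6 kb, came from the 30-cycle list, as did those at 17.6, 23.6 and 30.6 kb, while the peak at 29.1 kb was in both. The last, 896 bp wide and in both lists, lay just beyond the end of the gene, 47.3 kb from the start.

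Wnt4, which acts in kidney and gonad development, had peaks of 330 and 255 bp in introns, 1.02 and 9.99 kb from the start, both from the 30-cycle list. Wnt5b had a 228 bp intronic peak from the 36-cycle list and a 242 bp peak 12.8 kb upstream from the 30-cycle list. Wnt4, Wnt5b, Wnt7b and Wnt9a were the ligands with a peak in the gene, a share of 21.1% against 24.2% in the length deciles. Of the 18 peaks inside members, 13 were intronic, 3 overlapped untranslated exon sequence and 2 lay in coding sequence, the exonic ones all in Frizzled genes.

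The other ligands had peaks only outside the gene. Wnt11, a ligand of the branch that guides the orientation of muscle fibres, had 4 peaks, all upstream, of which that of 793 bp at 19.1 kb was in both lists (chr7:98815192-98815984). Wnt2b had 4, with a 403 bp peak of both lists next to the end of the gene. Wnt8b had 3 and Wnt8a 2, the latter including the widest of all 60 peaks, 1260 bp and in both lists, whose nearest start site was that of Fam13b. Wnt7a, which promotes the expansion of satellite cells, had a single 335 bp peak 29.5 kb upstream, and Wnt16 a single 242 bp peak 7.45 kb upstream, both from the 30-cycle list.

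No peak was found within 50 kb of 11 genes, namely Wnt2, Wnt3, Wnt5a, Wnt9b, Ror2 and the 6 Frizzleds named above. For 5 of them the nearest peak lay between 50 and 100 kb, as for Wnt9b at 51.6 kb. The other 6 were farther away, from 114 kb for Fzd4 to 369 kb for Fzd10 and 506 kb for Wnt5a. Wnt5a and its receptor gene Ror2 thus both lacked a peak in reach, whereas Ror1 had 1 within 50 kb and 4 in introns. A peak within 50 kb was found for 59.0% of other genes in the length decile of Wnt5a. In the longest decile, that of Ror1 and Ror2, the share was 50.8%, and 24.0% of genes held at least 4 peaks. How much of this depends on sequencing depth cannot be told from lists of positions.

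Peaks of the Wnt genes lay mostly upstream. Of the 49 pairs of a ligand gene and a peak within 50 kb, the peak was upstream of the start in 37 (75.5%, 61.9 to 85.4%), while over 31019 such pairs of all protein-coding genes 49.2% were upstream. When each peak was counted only for the protein-coding gene with the nearest start site, 24 of 31 were upstream (77.4%, 60.2 to 88.6%), against 41.8%. For the Frizzled genes, 4 of 13 were upstream over all pairs (30.8%, 12.7 to 57.6%) and 4 of 9 by the nearest start site (44.4%, 18.9 to 73.3%), and both intervals held the share of all protein-coding genes. The ligand peaks come in clusters, as at Wnt7b and Wnt11, and the peaks between the start sites of a divergent pair are upstream of both genes. The pairs are therefore not independent, and the intervals are narrower than they should be.

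Counting peaks only for the nearest start site also changed the share of genes. On this count 18 of 34 genes had a peak within 50 kb (52.9%, 36.7 to 68.5%), where other genes of the same length deciles gave 32.0%. Wnt ligands gave 11 of 19 (57.9%, 36.3 to 76.9%, length deciles 32.4%) and receptors 7 of 15 (46.7%, 24.8 to 69.9%, length deciles 31.5%). The length-decile share lay below the interval for all 34 genes and for the ligands, and inside it for the receptors. Genes that lie far from other genes are the nearest gene over a wider stretch, and the spacing of genes was not taken into account.

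For none of the motifs did the 60 peaks differ from all peaks beyond counting error. Their median GC content was 51.0%, against 47.1% over all combined peaks, and 5 of them were more than 50% repeat sequence (8.33%, all peaks 10.4%). In the central 200 bp, AP-1 matches were found in 13 (21.7%, 13.1 to 33.6%, all peaks 17.9%) and E-box matches in 10 (16.7%, 9.31 to 28.0%, all peaks 18%). RUNX matches were found in 11 (18.3%, all peaks 24.7%), TEAD matches in 9 (15.0%, all peaks 15.6%) and TCF/LEF matches in 3 (5.00%, 1.71 to 13.7%, all peaks 6.64%). No match to any of them was found in 26 (43.3%), a share that was 41.5% over all peaks.

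The 3 peaks with a TCF/LEF match, the motif of the pathway's own nuclear factors, lay 38.7 kb upstream of Wnt2b, 30.5 kb upstream of Wnt8b and in an intron of Ror1. Repeat sequence made up 92.8% of the Wnt8b peak, and the start site nearest to the Ror1 peak was that of Ube2u. AP-1 and E-box matches occurred together in 3 peaks, those of Wnt9a, of Wnt6 and Wnt10a, and upstream of Ror1. The 6 start-site peaks of Fzd1, Fzd2, Fzd7 and Wnt10b held none of the motifs in their central 200 bp, and their median GC content was 63.1%.

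The start-site share went with the CpG content of the promoter. When protein-coding genes were divided into 5 classes of similar size by the number of CpG within 500 bp of the start, the share with a start-site peak ran from 1.19% in the lowest to 25.2% in the highest, and 20 of the 34 genes were in the highest. With other genes weighted to the same classes, the start-site share was 21.6%, against 11.8% for these genes (4.67 to 26.6%). The same weighting gave 34% in the gene and 65.3% within 50 kb, against 32.4% and 67.6%, and was not made for ligands and Frizzleds separately.

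The wider pathway was described with a hand-written list of 75 further genes. A start-site peak was found for 8 of them (10.7%, length deciles 15.0%), a peak in the gene for 29 (38.7%, length deciles 35.5%) and a peak within 50 kb for 52 (69.3%, interval 58.2 to 78.6%, length deciles 55.2%). With each peak counted only for the nearest start site, 34 had a peak within 50 kb (45.3%, 34.6 to 56.6%, length deciles 37.1%). That interval held its background share. For all peaks within 50 kb the background share (55.2%) lay below the interval (58.2 to 78.6%). The weighting by CpG content was not made for these 75 genes. The start-site genes were Lgr5, Sfrp4, Dkk2, Gsk3b, Csnk1d, Tnks2, Lef1 and Prickle1, of which Prickle1, a planar cell polarity gene, alone had a start-site peak called in both lists, 680 bp wide and 0.248 kb from the start.

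By role, 8 of the 13 nuclear genes, which include the TCF/LEF factors, had a peak in the gene (61.5%, 35.5 to 82.3%, length deciles 39.3%), and 11 had a peak within 50 kb (84.6%, 57.8 to 95.7%, length deciles 55.1%). The background share lay inside the interval in the gene and below it within 50 kb, which was not tested. For peaks of both lists the counts in the gene and within 50 kb were 3 (23.1%, 8.18 to 50.3%, length deciles 20.3%) and 5 (38.5%, 17.7 to 64.5%, length deciles 27.8%). Both of these wide intervals held the background share. Of the 22 cytoplasmic genes, among them those of the destruction complex that degrades beta-catenin, 7 had a peak in the gene (31.8%, length deciles 35.4%) and 14 within 50 kb (63.6%, length deciles 56.1%). None of these 22 had a peak of both lists in the gene, where the length deciles gave 17.0% and the interval reached 14.9%. This count comes from many combinations of role, list and distance, for which the interval was not adjusted, and it was not tested. Secreted and membrane-bound inhibitors such as the Dkk and Sfrp genes gave 4 of 18 in the gene (22.2%, length deciles 21.5%) and 12 of 18 within 50 kb (66.7%, length deciles 53.7%). The R-spondins with their Lgr receptors and ligases gave 5 of 9 for each (55.6%, length deciles 47.7% and 55%). The planar cell polarity genes gave 4 of 11 in the gene (36.4%, length deciles 44.5%) and 8 of 11 within 50 kb (72.7%, length deciles 55.3%). Wls and Porcn, which are needed for Wnt secretion, both had a peak within 50 kb, where the length deciles gave 59.0%.

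**Figure D5:**
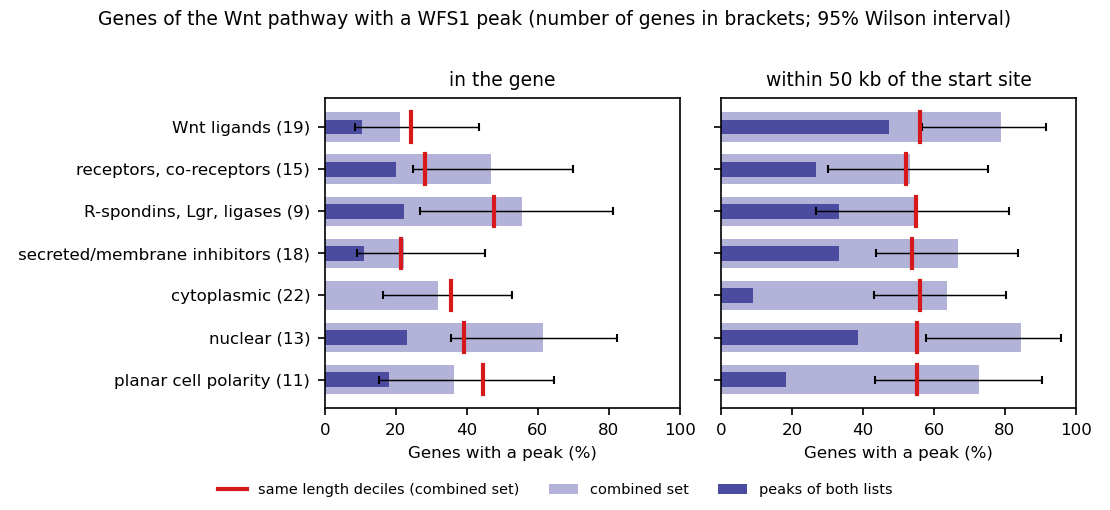
Share of genes (%) with a WFS1 peak in the gene (left) and within 50 kb of the start site (right) for ligands, receptors and 5 classes of further pathway genes, with numbers of genes in brackets. Light bars with 95% Wilson intervals are the combined set and dark bars peaks of both lists. Red lines are other protein-coding genes of the same length deciles, counted on the combined set. The red lines are therefore not the background of the dark bars. Nuclear genes reach 84.6% within 50 kb, and cytoplasmic genes show no dark bar in the gene.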

How the data were processed

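WFS1 ChIP-seq peak lists of wildtype C2C12 cells, 1 per sonication condition, were used. The authors aligned the reads with NextGenMap (GRCm38), filtered them with samtools and called peaks per library with MACS2, and the control used in calling is not given in the sources used here. The deposited values are peak positions, with no score, signal or q-value, and depth is unknown. The 5 peaks on the mitochondrial genome were left out.

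The lists were joined with bedtools merge (2.31.1, overlap of at least 1 bp). Genes were those of GENCODE mouse release 21, which precedes the release named in Methods, and the 5′ end of each gene served as its start site. Distances run from the nearest edge of a peak. Background shares were computed over all protein-coding genes, and over the non-member genes of each of 10 length deciles, averaged over the deciles of the genes described. Motifs were searched on both strands. The sequences of 2 peaks are not reported here. Shares have 95% Wilson intervals (scipy 1.17.1). The other versions were python 3.11.15, numpy 2.4.6, pandas 2.3.3, pysam 0.24.0, samtools 1.23.1 and matplotlib 3.10.9. Overlap counts and the motif search were tested on simulated data.

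All 34 genes are described. Pathway genes were named where a peak of both lists lay at the start site (Prickle1), and any further pathway gene was picked with its values in view. The members and the gene lists were chosen with earlier results of these data known.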

Additional observations from a re-analysis of the deposited data

How the results depend on the processing

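Counts of genes with a peak depended on the list and on peak width. Of the 34 genes, the 36-cycle list alone left 2 with a start-site peak (without Fzd1 and Fzd7) and 7 with a peak in the gene. Peaks of both lists left 1, 5 and 13 (start site, gene, 50 kb), and the background shares for these lists are given above. Peaks wider than the median left 2, 5 and 14. For that width the share of all protein-coding genes was not computed, and a smaller peak set lowers such counts for any genes. A distance of 20 kb gave 14 genes (34.7% of protein-coding genes) and 100 kb gave 28 (69.7%). Of the 75 further pathway genes, 4 had a start-site peak in the 30-cycle list (5.33%, length deciles 12.3%). In the 36-cycle list 5 had one (6.67%, length deciles 6.94%), and 33 had a peak within 50 kb (44.0%, length deciles 36.9%). A start-site limit of 2 kb added Wnt4 and Wnt9a (6 genes, 15.3% of protein-coding genes). Within 50 kb, the 36-cycle list alone gave 16 genes and the nearest start site only 18. Joining peaks up to 500 bp apart, or leaving out repeat-rich peaks, changed none of the 3 counts of genes. The joining does merge the 2 start-site peaks of Fzd1, and those of Fzd7, into 1 each. Background shares at the 3 distances were 21.6%, 34% and 65.3% by CpG content in place of length, and 15%, 27.8% and 59.3% by chromosome. No paired analysis was possible because there is a single library for each number of cycles and nothing was tested. Without a score in the lists, no stricter calling threshold could be tried. Depth, peak height and variation between immunoprecipitations cannot be assessed from these lists.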

Other observations

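Some of the further pathway genes, picked after their values were seen, held several peaks. Tcf7l1, which encodes a TCF/LEF factor, held 7 intronic peaks in its 163 kb gene, 5 of them with a contribution from both lists, and widths ran from 284 to 1186 bp. At least 7 peaks were found in 10.5% of the genes of the longest decile. The Tcf7l1 peaks 89.1 to 135 kb from its start were nearest to the start site of Tgoln1. Daam1, which encodes a formin of the planar cell polarity branch that assembles actin filaments, held 6 intronic peaks in 161 kb, 5 of them from both lists, and 1 of these was 2619 bp wide. At least 6 were found in 13.7% of the longest decile. The Daam1 peak 156 kb from its start was nearest to the start site of Gpr135. Tcf7l2 held 5 (at least 5 in 17.7%), and Lgr6 held 4 (at least 4 in 24.0%), 1 of them in coding sequence. The Lgr6 peaks 82.7 to 87.9 kb from its start were nearest to the start site of Ube2t. By contrast, Axin2, a widely used target gene of the beta-catenin branch, had no peak within 50 kb, its nearest lying 91.3 kb away, and Ctnnb1, which encodes beta-catenin, had 1 intronic peak of 350 bp in the 30-cycle list only.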
